A study of Mus musculus with 8 samples.

Results

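The genes described here are 10 members of the Notch pathway, chosen by symbol out of the 37620 genes in the tables: the receptors Notch1, Notch2 and Notch3, the ligands Dll1, Dll4, Jag1 and Jag2, the targets Hes1 and Nrarp, and Atoh1, the transcription factor that commits intestinal cells to the secretory lineage. Each of the 10 symbols matched 1 gene ID, and all 10 passed the filter on low counts. RNA-seq libraries were made from epithelial cells of the mouse small intestine, sorted by flow cytometry on the surface protein CD24 after removal of CD45+ cells (white blood cells) and of cells that bind the Ulex europaeus lectin (UEA). There were 4 CD24Mid libraries (CD24 at an intermediate level, for which the submitters also use CD24low; replicates 1, 3, 5 and 7) and 4 CD24Neg libraries (without surface CD24; replicates 2, 4, 6 and 8). Neither group was treated, and the labels used here name no strain, genotype or age. The libraries are described as biological replicates, but the animals behind them are not stated, so p-values measure the spread between these libraries.

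Notch receptors are single-pass membrane proteins that are activated by Delta-like and Jagged ligands on neighbouring cells. Ligand binding lets gamma-secretase cut the receptor, and the released intracellular domain joins the DNA-binding protein Rbpj in the nucleus to switch on targets such as Hes1, a repressor, and Nrarp, a feedback inhibitor. In the intestinal crypt, Notch activity keeps stem and progenitor cells and steers cells to the absorptive fate. Hes1 represses Atoh1, and cells with Atoh1 carry Delta-like ligands and become goblet, Paneth or enteroendocrine cells.

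Between 11340782 and 18928233 reads per library were unique to 1 gene. Levels are CPM (counts-per-million reads of a library) after TMM scaling, which aligns the libraries on the bulk of their genes, and 0 reads would allow up to 0.145 CPM in CD24Mid and 0.38 CPM in CD24Neg. The sorting gene Cd24a was at 194 ± 43.4 CPM (SD, n = 4) in CD24Mid and 28.6 ± 8.37 in CD24Neg, and the epithelial marker Epcam at 1300 ± 124 and 1378 ± 61.9 CPM. Summed markers of crypt base stem cells ran from 3075 to 4058 CPM in CD24Mid and from 122 to 355 in CD24Neg. Enterocyte markers ran the other way, from 663 to 1154 CPM and from 20774 to 36581. Despite the removal of CD45+ cells, T and NK lymphocyte markers summed to 3.35 to 11.2 CPM in CD24Mid and 26.4 to 483 CPM in CD24Neg, and B and plasma cell markers to 393 to 1009 and 21.9 to 53.6 CPM. The part of these cells in the Notch genes' levels was not tested. In such bulk libraries, fewer cells of a type and less RNA per cell cannot be told apart.

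The promoters of Atoh1, Nrarp and Notch1 are shown because Atoh1 is the gene that Hes1 represses, while Nrarp and Notch1 stand for the target and receptor genes that were higher in CD24Mid. Each window holds the 250 bases before the RefSeq transcription start (build GRCm38.p6), on the strand of the gene. Capitals mark CACGCG or its reverse complement CGCGTG, a DNA element bound by Hes repressors.
Atoh1 promoter, chr6:64728875-64729124, plus strand: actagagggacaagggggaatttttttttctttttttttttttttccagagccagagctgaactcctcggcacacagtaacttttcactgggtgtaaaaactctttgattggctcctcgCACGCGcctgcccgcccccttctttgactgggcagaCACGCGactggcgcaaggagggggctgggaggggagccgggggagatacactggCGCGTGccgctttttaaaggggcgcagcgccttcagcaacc
Nrarp promoter, chr2:25180508-25180757, plus strand: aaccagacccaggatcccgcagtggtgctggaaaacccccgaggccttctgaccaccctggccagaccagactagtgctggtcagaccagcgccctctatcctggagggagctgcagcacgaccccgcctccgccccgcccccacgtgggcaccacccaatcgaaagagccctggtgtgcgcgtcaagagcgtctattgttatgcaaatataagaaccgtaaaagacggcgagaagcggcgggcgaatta
Notch1 promoter, chr2:26503823-26504072, minus strand: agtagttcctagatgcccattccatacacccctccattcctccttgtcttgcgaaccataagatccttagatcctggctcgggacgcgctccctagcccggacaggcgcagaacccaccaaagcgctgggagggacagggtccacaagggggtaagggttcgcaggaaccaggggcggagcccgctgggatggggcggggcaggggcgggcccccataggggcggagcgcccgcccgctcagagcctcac
The Atoh1 window held 3 such elements, with first bases 131, 95 and 41 bases before the start, and the Nrarp and Notch1 windows held none. Of the members, 9 had a promoter entry, with 2 windows for Dll1 and 1 for each other gene. In 5 of the 9 genes a window held the element: Atoh1 with 3, Jag1 with 2, and Notch2, Dll4 and Dll1 (window 2 only) with 1 each. The element was present in 7.61% of 32817 RefSeq windows of the same length, a share of single windows and not of genes. The members' windows had a GC content of 55.6% to 87.2%, and they were not compared with windows of like GC content. The core letters of the Rbpj site, GTGGGAA or TTCCCAC on the other strand, were in none of the members' windows and in 5.42% of all windows. These matches describe the letters of each window and were not tied to any binding measurement.

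The CD24Mid and CD24Neg cells were compared to ask where in the CD24-sorted epithelium the parts of the Notch pathway are transcribed. Of the 10 genes, 5 were higher in CD24Mid (Notch1, Notch2, Jag2, Hes1 and Nrarp), none was higher in CD24Neg, and 5 were not called (edgeR quasi-likelihood test, Benjamini-Hochberg adjusted p under 0.05). Of all 12840 genes tested, 35.5% were higher in CD24Mid and 34.3% were higher in CD24Neg. The groups did not overlap for the same 5 genes, against 33.0% of all genes tested without overlap on the CD24Mid side and 31.4% on the CD24Neg side. With 69.8% of all genes called in either direction, a count of 5 of 10 does not set these genes apart. The median log2 fold change, CD24Mid over CD24Neg, was 0.94 over the 10 genes and 0.015 over all genes tested. By role, 2 of 3 receptors, 1 of 4 ligands and 2 of 2 targets were higher in CD24Mid, and Atoh1 was not called.

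**Figure D1:**
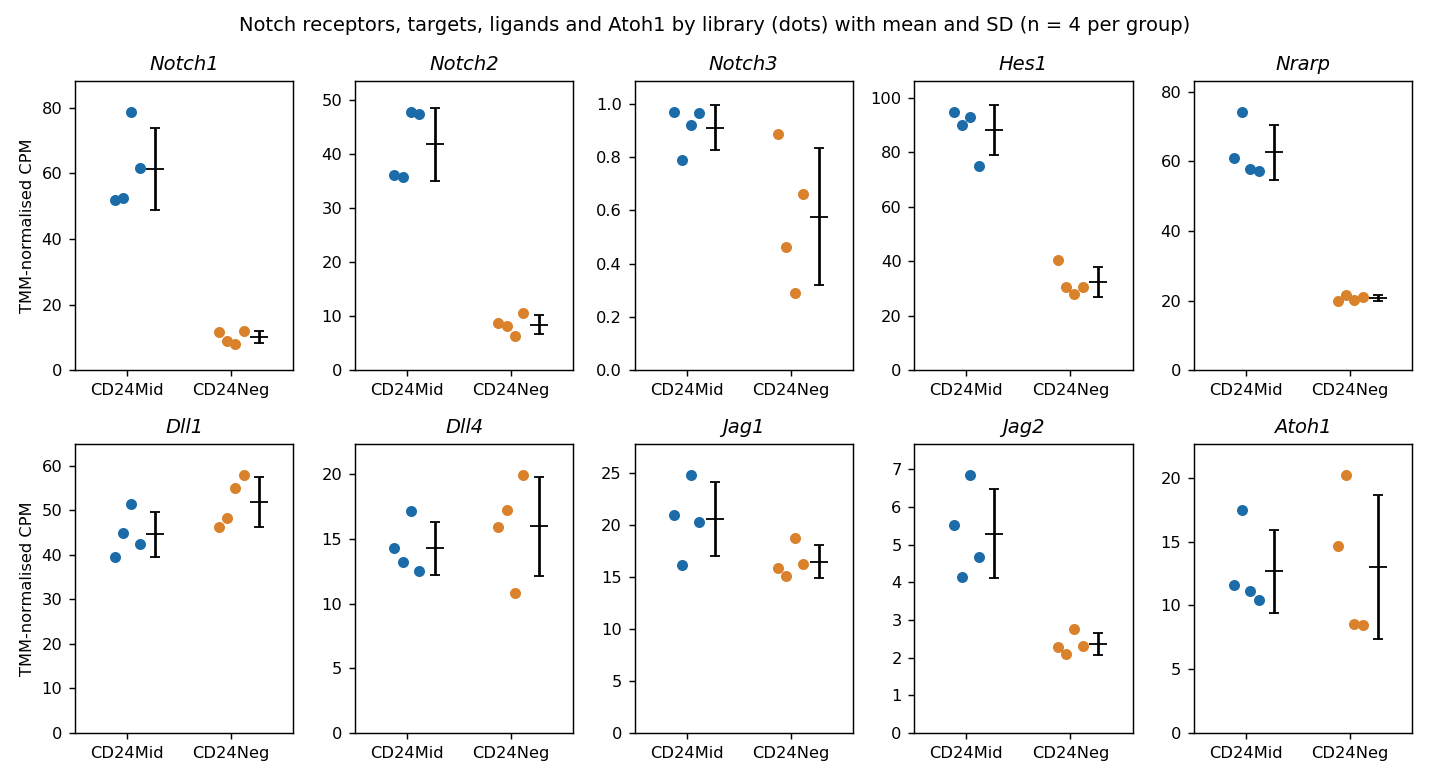
Each panel plots 1 gene, with TMM-normalised CPM on a linear axis from 0, a dot for each library and a bar for the mean and SD of the 4 libraries of a group. The CD24Mid dots of Notch1, Notch2, Hes1, Nrarp and Jag2 all lie above the CD24Neg dots, while the dots of Notch3, Dll1, Dll4, Jag1 and Atoh1 overlap.

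Among the receptors, Notch1, the receptor best known for holding crypt progenitors undifferentiated, was at 52.0, 52.5, 78.7 and 61.7 CPM in CD24Mid replicates 1, 3, 5 and 7 and at 11.7, 8.80, 8.13 and 11.9 CPM in CD24Neg replicates 2, 4, 6 and 8. All CD24Mid libraries lay far above all CD24Neg libraries, and replicate 5 was the highest. The means were 61.2 ± 12.5 and 10.1 ± 1.94 CPM (SD, n = 4 each), a log2 fold change of 2.61 ± 0.18 (SE; edgeR adjusted p = 5.33e-07). Leaving out any single library moved it only between 2.46 and 2.74.

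Notch2, which acts together with Notch1 in the crypt, was at 36.2, 35.8, 47.8 and 47.5 CPM in CD24Mid and at 8.74, 8.22, 6.25 and 10.6 CPM in CD24Neg. The groups were again well apart, and CD24Mid replicates 5 and 7 stood above replicates 1 and 3. The means were 41.8 ± 6.72 and 8.45 ± 1.79 CPM, a log2 fold change of 2.32 ± 0.18 (edgeR adjusted p = 9.74e-07).

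Notch3, a receptor best known from the smooth muscle of vessels, had few reads: 20, 17, 22 and 24 in CD24Mid and 7, 4, 4 and 6 in CD24Neg. This came to 0.911 ± 0.0837 and 0.576 ± 0.257 CPM, and the highest CD24Neg library reached into the CD24Mid range. The log2 fold change of 0.72 ± 0.35 did not pass (edgeR adjusted p = 0.0898), and it passed at 1.03 when CD24Neg replicate 2, the highest of its group, was left out (adjusted p = 0.032). The ratio of summed reads, each over the scaled library size, was 1.71, with an exact 95% interval from 1.05 to 2.91 that covers counting error only. Summed markers of fibroblasts and muscle were at 10.5 to 14.8 CPM in the CD24Mid libraries and at 3.49 to 11.9 in CD24Neg, and Col1a2, Pdgfra and Des, 3 of the 8 markers, were at 0 reads in every CD24Mid library. Their part in the Notch3 reads was not tested. Within CD24Neg, each of the 3 receptors was highest in replicates 2 and 8, which also had the highest sums of T and NK lymphocyte markers (483 and 344 CPM, against 26.4 and 73.9 in replicates 4 and 6). Replicates 2 and 8 also had the highest CD24Neg sums of fibroblast and muscle markers (11.9 and 7.62 CPM, against 4.51 and 3.49 in replicates 4 and 6). The same held for endothelial and myeloid markers. Between the groups, summed T and NK markers were higher in CD24Neg and summed B and plasma cell markers were higher in CD24Mid. The part of lymphocytes and of these other cell types in the receptor levels was not tested.

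Of the targets, Hes1, the repressor that holds down Atoh1, was at 94.8, 90.2, 93.0 and 74.9 CPM in CD24Mid and at 40.5, 30.6, 28 and 30.5 CPM in CD24Neg. The lowest CD24Mid library was still well above the highest CD24Neg library. Means of 88.2 ± 9.11 and 32.4 ± 5.57 CPM gave a log2 fold change of 1.45 ± 0.14, or 2.73-fold (edgeR adjusted p = 3.75e-06).

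Nrarp, which binds the receptor's intracellular domain and limits its activity, was at 61.1, 74.2, 58.0 and 57.1 CPM in CD24Mid and at 19.8, 21.8, 20.1 and 21.0 CPM in CD24Neg. The CD24Neg libraries were nearly level with each other and far below CD24Mid. The means were 62.6 ± 7.92 and 20.7 ± 0.897 CPM, 3.03-fold apart, with a log2 fold change of 1.6 ± 0.11 (edgeR adjusted p = 5.42e-07). The log2 fold changes of both targets were below those of Notch1 and Notch2, and for Hes1 the ratio to the receptors within each library bears on this directly.

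Among the ligands, Dll1, a Delta-like ligand of secretory progenitors, was at 39.6, 44.9, 51.5 and 42.3 CPM in CD24Mid and at 46.2, 48.1, 55.0 and 58.0 CPM in CD24Neg. The groups overlapped, although the 2 highest libraries were CD24Neg and the 2 lowest CD24Mid. The log2 fold change was -0.22 ± 0.12 with a 95% interval from -0.45 to 0.0079 (edgeR adjusted p = 0.113).

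Dll4, the other Delta-like ligand of the crypt and also a ligand of blood vessels, was at 14.3, 13.2, 17.1 and 12.5 CPM in CD24Mid and at 16.0, 17.2, 10.8 and 20.0 CPM in CD24Neg. The CD24Neg libraries held both the highest and the lowest value. Its log2 fold change was -0.15 ± 0.19, with a 95% interval from -0.52 to 0.21 (edgeR adjusted p = 0.472). Summed endothelial markers were low, at 3.68 to 5.43 CPM in CD24Mid and 1.67 to 3.97 in CD24Neg, where Cldn5 had 0 reads. Esam was the only 1 of the 6 endothelial markers called, higher in CD24Mid, and their part in the Dll4 level was not tested.

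Jag1, a Jagged-type ligand, was at 20.9, 16.1, 24.8 and 20.2 CPM in CD24Mid and at 15.8, 15.0, 18.7 and 16.2 CPM in CD24Neg. CD24Mid replicate 3 fell within the CD24Neg range, and the other CD24Mid libraries lay above it. The log2 fold change of 0.31 ± 0.14 did not pass (edgeR adjusted p = 0.074). It passed at 0.42 without CD24Mid replicate 3 (adjusted p = 0.019) and at 0.44 without CD24Neg replicate 6 (adjusted p = 0.037), and also with no filter on low counts (0.42, adjusted p = 0.037).

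Jag2, the other Jagged ligand, was at 5.53, 4.14, 6.86 and 4.67 CPM in CD24Mid and at 2.28, 2.08, 2.76 and 2.32 CPM in CD24Neg. Every CD24Mid library was above every CD24Neg library, from 483 reads in all against 95. The means were 5.30 ± 1.19 and 2.36 ± 0.285 CPM, a log2 fold change of 1.15 ± 0.22 (edgeR adjusted p = 0.00080). Jag2 was the only 1 of the 4 ligands called under TMM scaling with the filter on low counts and all libraries.

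Atoh1 was at 11.6, 17.5, 11.2 and 10.4 CPM in CD24Mid and at 14.7, 20.3, 8.57 and 8.50 CPM in CD24Neg. The libraries of both groups spread widely, with CD24Neg replicate 4 the highest and CD24Neg replicates 6 and 8 the lowest. Means of 12.7 ± 3.24 and 13.0 ± 5.64 CPM gave a log2 fold change of -0.026 ± 0.28, with a 95% interval from -0.58 to 0.53 (edgeR adjusted p = 0.941). The interval includes changes of either sign, so the data do not show equal levels.

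Markers of the secretory cell types moved between the groups in different directions. Summed goblet markers, 5 of 6 of them higher in CD24Neg, were at 27176, 34453, 12213 and 14913 CPM in CD24Neg replicates 2, 4, 6 and 8, and at 3401 to 5287 CPM in CD24Mid. The pair of CD24Neg libraries with more goblet transcripts, replicates 2 and 4, were also the pair with more Atoh1. Summed Paneth markers, 1 of 7 called and higher in CD24Mid, were highest in CD24Mid replicate 3 (227 CPM) and CD24Neg replicate 4 (276 CPM), the libraries with the most Atoh1 in their groups. Summed crypt base stem cell markers were also highest in these libraries within each group (4058 and 355 CPM). Enteroendocrine markers ran from 265 to 590 CPM in CD24Mid and from 78.9 to 119 in CD24Neg, and tuft markers from 3.64 to 9.90 and from 2.91 to 10.3. The sort removed cells that bind UEA, a lectin that labels goblet and Paneth cells, and their transcripts were present at these levels after it. The part of the secretory cells in the levels of Atoh1 and Dll1 was not tested.

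TMM scaling bore on the direction of the genes near 0. The TMM factors were 1.34 to 1.42 in CD24Mid and 0.697 to 0.757 in CD24Neg, so that unscaled totals put the median of all genes at 0.96 and upper-quartile scaling put it at 0.24. Upper-quartile scaling added calls for Notch3 (log2 fold change 0.94, edgeR adjusted p = 0.036) and Jag1 (0.54, adjusted p = 0.0060). It also turned the signs of Dll1 (0.0056), Dll4 (0.066) and Atoh1 (0.20), none of them called. With unscaled totals all 10 genes were called higher in CD24Mid, with log2 fold changes of 0.73 for Dll1, 0.79 for Dll4 and 0.91 for Atoh1. A change of scaling shifts all genes by nearly the same amount, so values relative to the median of all genes stay the same by construction and are no check of stability. On that relative scale, under TMM, Notch1 was at 2.59, Jag1 at 0.30, Atoh1 at -0.041, Dll4 at -0.17 and Dll1 at -0.23.

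**Figure D2:**
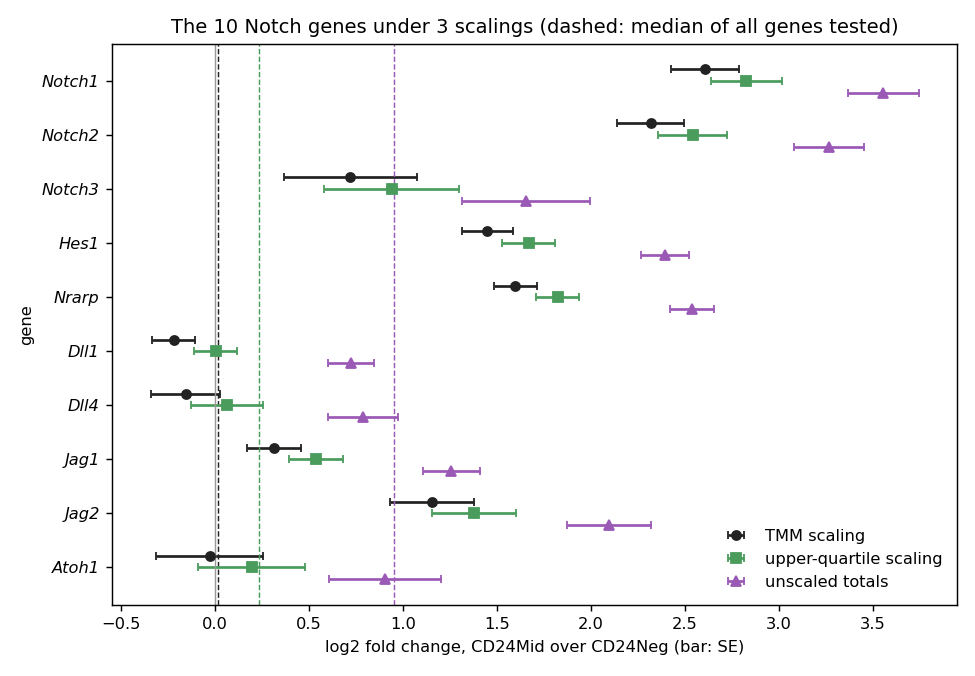
The log2 fold change of each of the 10 genes (CD24Mid over CD24Neg, bars for the SE) under TMM, upper-quartile and unscaled totals, with dashed lines at the median of all genes under each. By construction every gene moves with its dashed line, so Dll1, Dll4 and Atoh1 lie left of the line and Notch1, Notch2, Hes1, Nrarp and Jag2 right of it under all 3 scalings.

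Levels per length, here the CPM divided by the gene's median effective length in kilobases, put the genes on a common scale within each group. In CD24Mid, Hes1 had the highest level per length at 79.5 ± 8.21 CPM per kilobase, followed by Nrarp at 30.1 ± 3.81 and Dll1 at 19.6 ± 2.25. Notch1 (8.15 ± 1.66) and Atoh1 (7.62 ± 1.95) came next with ranges that overlapped, then Jag1 (4.99 ± 0.864), Notch2 (4.70 ± 0.755) and Dll4 (4.62 ± 0.661), which overlapped with each other. Jag2 (1.58 ± 0.354) and Notch3 (0.134 ± 0.0123) were lowest.

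In CD24Neg the order of these levels per length was different. Hes1 (29.2 ± 5.02 CPM per kilobase) and Dll1 (22.8 ± 2.45) overlapped at the top, above Nrarp (9.93 ± 0.431), Atoh1 (7.82 ± 3.39), Dll4 (5.18 ± 1.24) and Jag1 (4.01 ± 0.388), each of which overlapped with its neighbour. Notch1 (1.35 ± 0.258), Notch2 (0.949 ± 0.201) and Jag2 (0.704 ± 0.0851) followed, again with overlap between neighbours, and Notch3 was lowest at 0.0848 ± 0.0379. Dll1 stood above all 3 receptors in both groups with no overlap, and in CD24Neg it also stood above Nrarp.

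Shares and ratios within a library do not depend on the scaling between libraries. They use unique counts divided by the effective length in that library, and were compared with an exact two-sided permutation test of the means, whose smallest possible p with 4 against 4 libraries is 0.0286. With each library's own length, none of the 4 shares and ratios passed after adjustment over the 4. The adjusted call depended on the length used: 3 of 4 passed with the deposited estimate (exact permutation, adjusted p = 0.0381). All 4 passed with counts not divided by length and with the median length of each gene over the libraries (adjusted p = 0.0286 each). For the Jagged share and Hes1 over Atoh1, the groups did not overlap in any of these settings (exact permutation p = 0.0286 in each). Their adjusted p changed only with how many of the other measures reached that smallest p. The median length was an alternative added after the lengths were seen.

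Jagged ligands, Jag1 and Jag2 together, made up 25.7%, 17.6%, 22.5% and 23.7% of the 4 ligands' level in CD24Mid and 13.3%, 12.9%, 15.8% and 11.7% in CD24Neg. The groups did not overlap, and CD24Mid replicate 3 was closest to CD24Neg. The means were 22.4 ± 3.42% and 13.4 ± 1.75%, 8.97 percentage points apart (exact permutation p = 0.0286, adjusted 0.0571). Dll1 made up the largest share in every library, 61.8 ± 4.19% of the ligand level in CD24Mid and 71.8 ± 1.54% in CD24Neg. Dll4 held 15.8 ± 1.24% and 14.8 ± 3.23%.

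Among the receptors, Notch1 held 63.0 ± 2.22% of the level in CD24Mid and 60.7 ± 11.1% in CD24Neg, and the groups overlapped (difference 2.25 points, exact permutation p = 0.83, adjusted 0.83). CD24Neg replicate 2 stood at 76.9%, and the effective length given for Notch1 in that library was 3142 bases, against 6947 to 8151 in the others. With the median length the shares were 62.6 ± 2.29% and 56.7 ± 2.43%, and the groups did not overlap, with every CD24Mid library above 59.3%, the highest in CD24Neg. That difference was 5.92 points, and it was 5.76 points with counts not divided by length (exact permutation p = 0.0286 and adjusted p = 0.0286 for each), against 1.54 points with the deposited estimate (exact permutation p = 0.629). Notch3 held 1.04 ± 0.145% of the receptor level in CD24Mid and 2.95 ± 0.519% in CD24Neg.

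**Figure D3:**
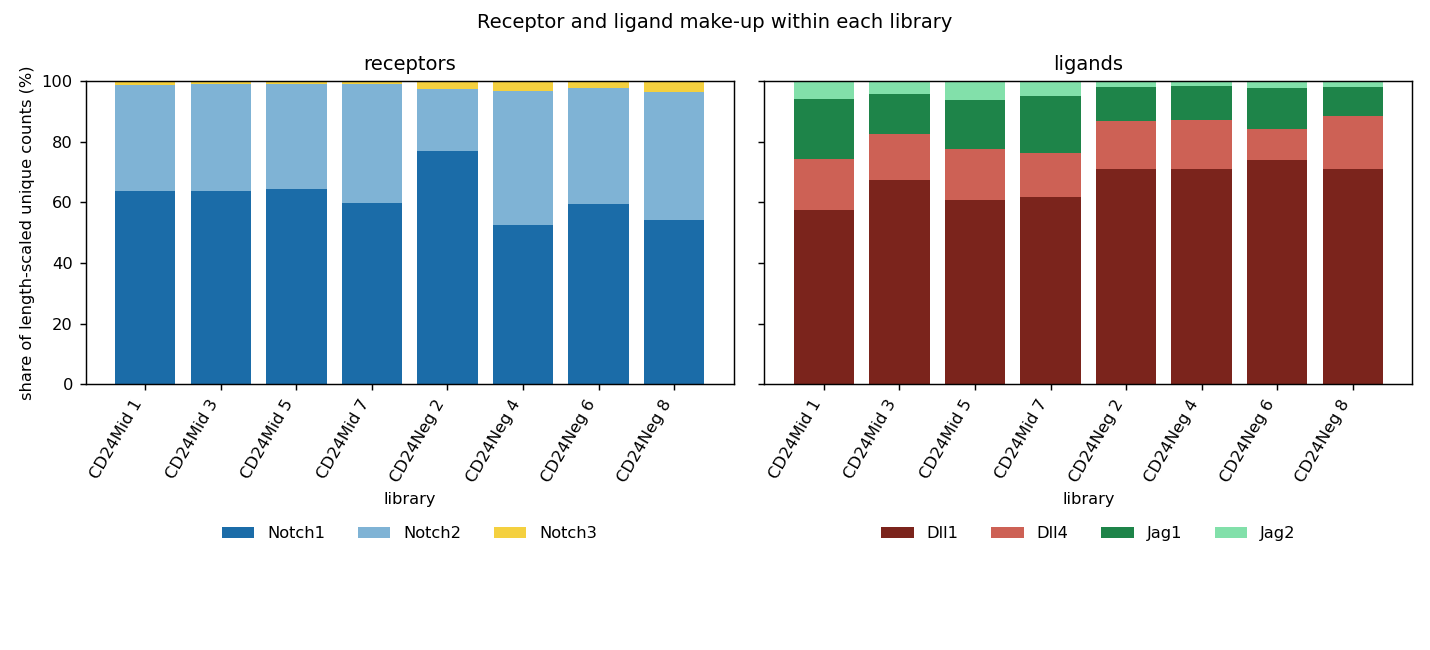
Stacked bars give the share of each receptor (left) and ligand (right) in the summed level per length of its family, in percent, for each of the 8 libraries. Notch1 and Notch2 fill nearly all of the receptor bars, with a taller Notch1 bar (76.9%) in CD24Neg replicate 2, and the Jagged part of the ligand bars is 17.6% or more in each CD24Mid library and 15.8% or less in each CD24Neg library.

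The level of Hes1 over that of Atoh1, the gene it represses, was 3.65, 2.95, 3.65 and 3.43 on the log2 scale in CD24Mid and 2.03, 1.18, 2.31 and 2.43 in CD24Neg. Every CD24Mid library was above every CD24Neg library. The mean log2 ratios of 3.42 ± 0.33 and 1.99 ± 0.56 differed by 1.43, or 2.70-fold (exact permutation p = 0.0286, adjusted 0.0571). The difference was close to the log2 fold change of Hes1 alone, 1.45.

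Hes1 over the summed receptors ran in the opposite direction, at 2.91, 2.83, 2.44 and 2.31 on the log2 scale in CD24Mid and 2.91, 3.73, 3.80 and 3.29 in CD24Neg. CD24Neg replicate 2, the library with the short Notch1 length, lay level with CD24Mid replicate 1, and the other CD24Neg libraries lay above all of CD24Mid. The difference in means was -0.81 (exact permutation p = 0.0571, adjusted 0.0762). With the median length of each gene it was -1.0 and the groups did not overlap (exact permutation p = 0.0286, adjusted 0.0286).

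**Figure D4:**
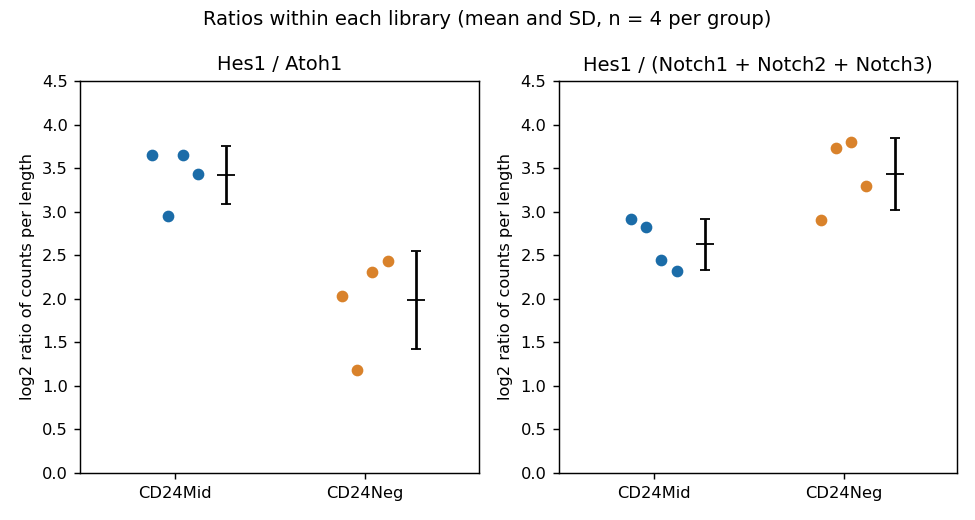
Log2 ratios of levels per length within each library, as dots for the libraries and bars for the mean and SD of 4, for Hes1 over Atoh1 (left) and Hes1 over the 3 receptors together (right). Hes1 over Atoh1 is at 2.95 or more in CD24Mid and 2.43 or less in CD24Neg, and Hes1 over the receptors is lower in CD24Mid on average, with 1 CD24Neg library at 2.91 beside CD24Mid.

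The genes that followed the members most closely over the 8 libraries were found by Pearson's r of log2 CPM over 9165 expressed genes, as a description. The libraries form 2 groups, so any gene with a like difference between them scores high. For Notch1 they were Prkd3 (r = 0.997), Qtrt2 (0.997) and Pom121 (0.996), and 1243 genes had r above 0.95. Hes1 was followed by Parn (0.998), Smug1 (0.997) and Vars2 (0.996), with 1124 genes above 0.95. Atoh1 had no gene above 0.95, and its closest were Tlnrd1 (0.930), Vps26b (0.902) and Scnn1a (0.900).

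A further 80 genes of the pathway and of the secretory lineage were listed by role, of which 64 were tested, 25 were higher in CD24Mid and 19 were higher in CD24Neg, with a median log2 fold change of 0.20. Without the secretory lineage factors, 16 of 53 tested genes were higher in CD24Mid and 19 were higher in CD24Neg. These shares are near those of all genes tested. Of the other receptors and ligands, Notch4, an endothelial receptor, was the only gene tested, at 4.10 ± 1.03 CPM in CD24Mid and 2.55 ± 1.02 in CD24Neg (edgeR adjusted p = 0.071). Of the untested genes, Dll3 had 17 reads in CD24Mid and 2 in CD24Neg, Dner 57 and 5, Dlk1 4 and 2, Dlk2 12 and 11, and Cntn1 6 and 14. DESeq2, run on every gene with a read, called Dner higher in CD24Mid (adjusted p = 0.023) and Cntn1 higher in CD24Neg (adjusted p = 0.0377).

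Receptor glycosylation genes, whose enzymes add sugars to the receptor, were higher in CD24Mid in 5 of 6 genes tested, with 1 higher in CD24Neg. These counts were the same under upper-quartile scaling and unscaled totals. Under TMM, 35.5% of all genes tested were higher in CD24Mid and 34.3% higher in CD24Neg. With unscaled totals, 8959 and 1659 of all 12840 genes were. Lfng, the Fringe enzyme that favours Delta-like over Jagged ligands, was at 11.1, 20.9, 15.3 and 10.4 CPM in CD24Mid and at 6.59, 2.08, 0.944 and 3.53 CPM in CD24Neg. The groups did not overlap, and CD24Neg replicate 2 came closest to CD24Mid. The difference was 4.57-fold (log2 fold change 2.19, edgeR adjusted p = 0.0013; 2.81 without CD24Neg replicate 2). Poglut1, which adds O-glucose, was at 24.0 ± 1.59 CPM in CD24Mid and 9.70 ± 1.14 in CD24Neg, 2.48-fold apart (edgeR adjusted p = 3.80e-06). Xxylt1, which adds xylose to the chain on that sugar, was 2.31-fold higher (edgeR adjusted p = 8.90e-06). Rfng, another Fringe enzyme, went the other way, at 29.9 ± 3.77 CPM in CD24Mid and 69.8 ± 4.30 in CD24Neg (edgeR adjusted p = 3.12e-06).

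Genes of ligand endocytosis and receptor trafficking split, with 4 higher in CD24Mid, 8 higher in CD24Neg and 3 not called of 15 tested, a split that became 8 and 4 with unscaled totals. Over all 12840 genes tested, the split was 4557 and 4410 under TMM and 8959 and 1659 with unscaled totals. The ubiquitin ligase genes Nedd4 (315 ± 59.6 against 79.6 ± 13.7 CPM) and Dtx4 (67.1 ± 7.45 against 24.7 ± 3.64 CPM) exceeded their CD24Neg levels 3.96-fold and 2.72-fold (adjusted p = 2.19e-06 and 2.60e-06 by edgeR). Epn2, an epsin adaptor of endocytosis, was 1.93-fold higher (edgeR adjusted p = 0.00014). Mib2, which ubiquitinates Notch ligands, was at 23.6 ± 3.25 CPM in CD24Mid and 84.2 ± 10.2 in CD24Neg (3.57-fold, edgeR adjusted p = 6.28e-07). Neurl3, of the Neuralized family, was at 127 ± 28 CPM in CD24Mid and 374 ± 55.2 in CD24Neg, 2.96-fold apart (edgeR adjusted p = 1.06e-05). Dtx1 was called as well, at 0.968 ± 0.686 CPM in CD24Mid and 6.15 ± 5.37 in CD24Neg (edgeR adjusted p = 0.0071), but its groups overlapped, and its log2 fold change went from -2.65 to -1.97 on leaving out CD24Neg replicate 2, and to -3.21 on leaving out CD24Mid replicate 1. In CD24Neg replicates 2, 4, 6 and 8 Dtx1 was at 12.9, 0.694, 3.27 and 7.73 CPM, and the summed T and NK lymphocyte markers were in the same order, at 483, 26.4, 73.9 and 344 CPM. Their part in the Dtx1 difference was not tested.

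For receptor cleavage, none of 9 tested genes was higher in CD24Mid and 5 were higher in CD24Neg under TMM, against 2 and 3 under upper-quartile scaling and 7 and 0 with unscaled totals. The direction of this list thus depended on the scaling. Over all 12840 genes tested, the counts in the same order were 4557 and 4410, 5594 and 3510, and 8959 and 1659. Furin, which cuts the receptor during its export, was at 61.5 ± 5.78 CPM in CD24Mid and 120 ± 13.6 in CD24Neg (edgeR adjusted p = 2.29e-05; not called with unscaled totals). Aph1b, a gamma-secretase subunit, was at 1.43 and 3.16 CPM (edgeR adjusted p = 0.0031; not called with unscaled totals).

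In the nuclear complex and its co-regulators, 7 of 20 tested genes were higher in CD24Mid and 4 were higher in CD24Neg under TMM, against 10 and 4 under upper-quartile scaling and 16 and 0 with unscaled totals. The counts over all 12840 genes tested were, in the same order, 4557 and 4410, 5594 and 3510, and 8959 and 1659. Rbpj, the DNA-binding partner of the receptors, was at 32.5 ± 4.04 CPM in CD24Mid and 21.1 ± 0.621 in CD24Neg, 1.54-fold apart (edgeR adjusted p = 0.00055). The acetyltransferase gene Kat2a was at 51.4 ± 2.46 CPM in CD24Mid and 12.5 ± 2.62 in CD24Neg (4.16-fold, edgeR adjusted p = 7.98e-07). Its paralog Kat2b was higher in CD24Neg, at 47.8 ± 7.08 CPM against 22.5 ± 2.81 (edgeR adjusted p = 2.99e-05), a call that was lost with unscaled totals. The deacetylase gene Hdac2 was 2.90-fold and the co-activator gene Maml3 1.67-fold above its CD24Neg level (adjusted p = 5.83e-07 and 0.00064 by edgeR). Tle3, a co-repressor that Hes proteins recruit, and Cir1, a co-repressor of Rbpj, were 1.81-fold and 1.74-fold higher in CD24Neg under TMM, and both turned with unscaled totals (log2 fold change 0.084 and 0.14).

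Of the Hes and Hey family, Hes1 was the only gene called higher in CD24Mid under TMM, and Hes6 was also called so with unscaled totals. Hes2, a relative of Hes1, was at 0.691 ± 0.216 CPM in CD24Mid and 22.5 ± 6.12 in CD24Neg, from 63 and 933 reads in all (log2 fold change -5.01 ± 0.27, edgeR adjusted p = 1.59e-07). Hes6, which counteracts Hes1, was at 40.6 and 38.4 CPM (edgeR adjusted p = 0.616). The other 6 did not pass the filter: Hes5 had 12 and 0 reads in all, Hey1 had 11 and 2, Heyl 9 and 67, Hes7 5 and 1, and Hes3 and Hey2 had 0 reads in every library. The CD24Neg reads of Heyl came mainly from replicates 2 and 8 (3.04 and 3.75 CPM, against 0.116 and 0.581 in replicates 4 and 6). These CD24Neg libraries had the highest sums of T and NK, fibroblast and muscle, endothelial and myeloid markers. The part of those cell types in the Heyl reads was not tested.

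Secretory lineage factors, which act beside or after Atoh1, were higher in CD24Mid in 9 of 11 genes tested, a count that was 9 under upper-quartile scaling and 11 with unscaled totals. Of all 12840 genes tested, 35.5% were higher in CD24Mid under TMM, and 8959 genes were with unscaled totals. Neurog3, which commits cells to the enteroendocrine fate, had 755 reads in CD24Mid and 8 in CD24Neg. The ratio of these reads over the scaled library sizes was 40.9, with an exact 95% counting interval from 20.6 to 95 (edgeR adjusted p = 1.46e-05). The fitted log2 fold change of Neurog3 was 5.29, and 6.35 without CD24Neg replicate 4, which held 5 of the 8 reads. Sox4, which acts in secretory progenitors, was at 36.3 ± 10.4 and 2.58 ± 0.945 CPM (14.2-fold, edgeR adjusted p = 9.45e-07). Insm1, an enteroendocrine factor, was at 8.89 ± 3.73 and 0.769 ± 0.60 CPM (12-fold, edgeR adjusted p = 5.97e-05), and without CD24Neg replicate 4 its log2 fold change was 4.29 in place of 3.59. Gfi1 and Spdef, factors of goblet and Paneth cells downstream of Atoh1, were not called, like Atoh1 (edgeR adjusted p = 0.744 and 0.417). Enteroendocrine markers were higher in CD24Mid in 6 of 8 genes, with the summed levels given above, and their part in the levels of Neurog3 and Insm1 was not tested.

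**Figure D5:**
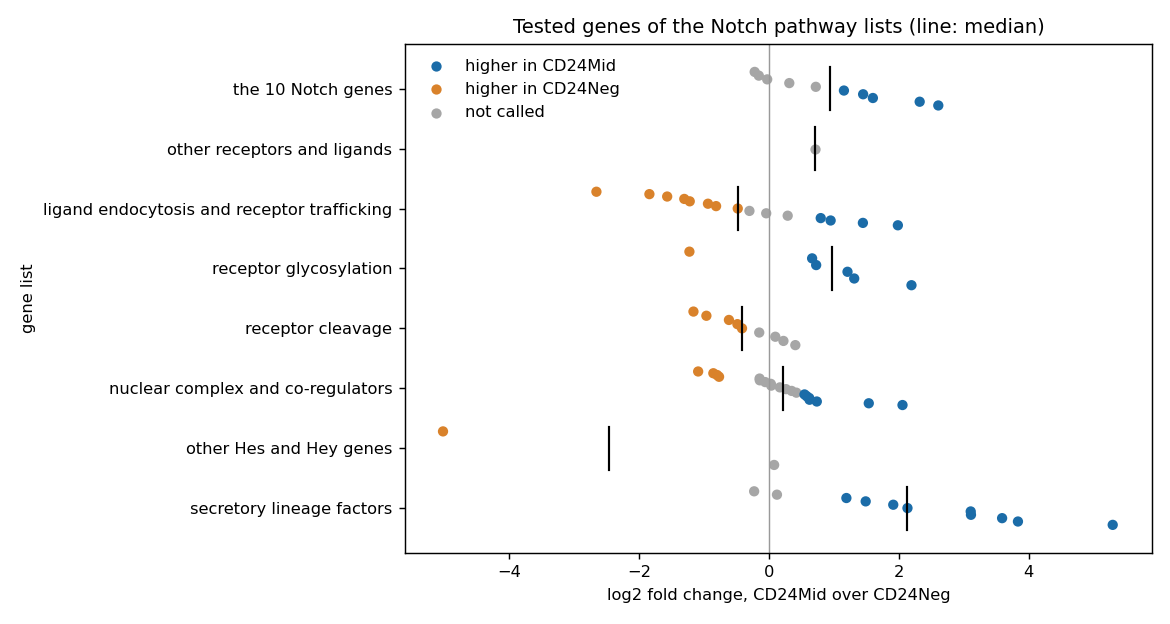
The log2 fold change (CD24Mid over CD24Neg, TMM scaling) of every tested gene of the 10 Notch genes and 7 further lists, 1 dot per gene, coloured by its call, with a line at the median of each list. The median is 2.13 for the secretory lineage factors, 0.97 for receptor glycosylation and -0.41 for receptor cleavage, where the called genes all lie on the CD24Neg side.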

How the data were processed

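Total RNA from sorted cells was made into libraries with a TruSeq kit, per the labels' protocols, and Bowtie 0.12.8 and build NCBIM37 are named in the submitters' processing notes. The sources used here do not give annotation release, strand setting or filters, so overlapping and antisense genes cannot be told apart. The deposited tables, whose column names are those of MMSEQ, give whole-number counts of fragments that hit 1 gene alone, the main measurement. A log estimate of expression by the authors was also deposited, read here as a natural log of fragments per kilobase, relative to mapped fragments (slope against unique counts 0.965 to 0.981), and an effective length for each gene. Levels of genes with near-identical copies are lowered by unique counting. Gene IDs were named through a table of symbols (32897 of 37620 matched, 87.4%).

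Unique counts entered edgeR 4.0.16 (R 4.3.3; TMM, filterByExpr, robust quasi-likelihood F test, group only, 8 libraries), and p-values of 12840 genes were adjusted by Benjamini-Hochberg and called under 0.05. The standard error is the log2 fold change over the root of F. The 95% intervals of log2 fold changes reach 1.96 standard errors to each side. That normal multiplier makes them narrower than the F test implies, and they are not adjusted for the number of genes. By this rule the intervals of Notch3 (0.029 to 1.41) and Jag1 (0.030 to 0.60) lie above 0, though neither gene was called. The test was checked on simulated data in which few genes differed, evenly in both directions, so that check does not bear on the scaling. Library pairs within a group differed by more than sampling noise (chi-square per degree of freedom at least 11.6), so none was counted as a repeat. Alternatives were upper-quartile factors, unscaled totals, DESeq2 1.42.0, no filter, estimated counts and leaving out each library, and for shares the deposited estimate, counts not divided by length and, added later, the median length. Exact intervals and permutation tests used SciPy 1.17.1. The exact intervals rest on reads summed over the libraries of a group, so they cover counting error only and leave out the spread between libraries. PCR copies, not removed by molecular identifiers in the sources used here, count as separate reads in them. Members, gene lists and cell type markers were chosen with earlier results of these data known. Named genes were all members, Cd24a, up to 3 called genes in each direction per list (mean log2 CPM at least 1), and the 3 genes most like Notch1, Hes1 and Atoh1 (mean log2 CPM at least 3). Of the genes this rule names, 1 is not reported here. Notch4, Rbpj, Epcam, Hes6, Gfi1, Spdef and the genes with few reads were named after their values were seen. Promoter windows came from RefSeq tables of build GRCm38.p6, which has other coordinates than NCBIM37.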

Additional observations from a re-analysis of the deposited data

Results flagged for a closer look

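Notch1 made up 59.7% of the receptor level per length in CD24Mid replicate 7, against 63.9%, 63.9% and 64.6% in the other CD24Mid libraries, so that this library stood apart from the rest of its group (gap over range 0.856, above Dixon's 95% limit for 4 values). It was the only such value among 28 groups of 4 values checked, and chance alone flags about 1 in 20.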

How the results depend on the processing

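Notch1, Notch2, Jag2, Hes1 and Nrarp were called higher in CD24Mid under every alternative run. The count of the 10 genes higher in CD24Mid was 7 with upper-quartile scaling, 10 with unscaled totals, 6 with no filter and 5 to 6 when each library was left out in turn. Over all genes, unscaled totals called 8959 higher in CD24Mid and 1659 higher in CD24Neg, in place of 4557 and 4410. This moved the share of called genes that were higher in CD24Mid from 50.8% to 84.4%, with 61.4% under upper-quartile scaling. Signs turned for genes near 0. Dll1 was at 0.0056 with upper-quartile scaling and 0.73 with unscaled totals, Dll4 at 0.066 and 0.79, and Atoh1 at 0.20 and 0.91, with 0.070 for Atoh1 with no filter. Leaving out each library gave -0.26 to 0.016 for Dll4 and -0.22 to 0.32 for Atoh1. With unscaled totals Tle3 was at 0.084 and Cir1 at 0.14. The Hes1 to receptor log2 ratio was -0.86 from the deposited estimate, -0.99 without length and -1.0 with the median length (each exact permutation p = 0.0286). The difference in Notch1 share was 5.76 points without length and 5.92 with the median length (each exact permutation p = 0.0286), and -0.50 to 7.62 points when each library was left out, with the lowest value without CD24Neg replicate 4. Leaving out a library gave 7.87 to 10.6 points for the Jagged share, 1.16 to 1.59 for Hes1 over Atoh1 and -0.98 to -0.68 for Hes1 over the receptors, where no exact p under 0.0571 is possible. No paired analysis was run because the groups share no replicate number and no label ties a CD24Mid library to a CD24Neg one. Within their groups, replicates 3 and 4 had the highest sums of Paneth and crypt base stem cell markers, and 1 and 2 the highest T and NK sums. Sums of dividing cell, endothelial and myeloid markers were highest in replicates 7 and 8. The highest goblet sums were in replicates 1 and 4, enterocyte sums in 1 and 6, and enteroendocrine sums in 5 and 4. For tuft markers they were in 3 and 8, for fibroblast and muscle markers in 5 and 2, and for B and plasma cell markers in 7 and 4. Whether libraries with consecutive numbers share a sort or an animal is not stated and was not tested. After adjustment over the 4 shares and ratios, 0 passed with each library's own length, 3 with the deposited estimate, and 4 without length and with the median length. For the Jagged share and Hes1 over Atoh1 the unadjusted exact permutation p was 0.0286 in each of these settings. Depth limits Notch3, Jag2 and the genes with few reads. The cause of these changes was not tested.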
